A study of Caenorhabditis elegans with 4 samples.

Results

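The genes described here make up the route by which Caenorhabditis elegans turns neuropeptide precursors into active peptides and stores them in dense-core vesicles. They are 8 genes taken by name from the 20179 genes of the footprint count table: egl-3, sbt-1, egl-21, pghm-1, pgal-1, pamn-1, ida-1 and unc-31. All 8 were present, and all 8 were among the 13086 genes that passed the filter on low counts. Ribosome-protected fragments had been sequenced from whole young adults in 2 groups. The double mutant carried cey-1 (rrr12) together with cey-4 (ok858) and had 2 libraries, and the wild-type strain N2 had 2 libraries. Both strains were fed OP50 from hatching and frozen as young adults, and the labels do not say whether the libraries of a group came from separate cultures, so the p-values measure the spread between these libraries, which may be technical. cey-1 and cey-4 encode Y-box proteins, which bind messenger RNA.

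Neuropeptides are made as long precursors in the secretory pathway. A proprotein convertase cuts the precursor after basic residues, a carboxypeptidase removes those residues, and an amidating activity converts a C-terminal glycine into the amide that many peptides need to bind their receptors. The mature peptides travel in dense-core vesicles, which fuse with the plasma membrane away from the zones where synaptic vesicles release classical transmitters. In worms this machinery works mainly in neurons, with further sites in other secretory cells.

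The libraries held 27219638 and 22334239 counts in the mutant and 32960588 and 27906409 counts in N2. Footprints on the mutated genes checked the labels: cey-1 had 105 and 92 counts in the mutant libraries and 2299 and 2048 counts in N2, and cey-4 had 51 and 34 counts in the mutant libraries and 8669 and 7421 counts in N2. Levels are given as CPM, counts relative to the TMM-scaled library total, with the SD over the 2 libraries of a group. Messenger RNA itself was not analysed here, and a footprint count depends both on how much message there was and on how densely ribosomes covered it. In whole-worm samples, fewer cells of a type and less RNA per cell cannot be told apart. Coding lengths were not used, so the levels of different genes are not ranked against each other.

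Of the 8 genes, 3 fell in the mutant, 0 rose and 5 did not pass the test (edgeR quasi-likelihood test, Benjamini-Hochberg adjusted p under 0.05 over all genes tested). Over all genes tested, 16.6% fell and 17.4% rose, 34% in all. The 3 that fell were egl-3, egl-21 and pghm-1, genes for cutting, trimming and the first step of amidation. pamn-1, which also carries that first amidation activity, did not pass (log2 fold change -0.0006). Before adjustment, 4 of the 8 had a p under 0.05, none of them higher in the mutant. Over all genes tested the share was 41.8% with both directions counted, and 2817 of those genes were higher. The median log2 fold change of the 8 genes was -0.18, beside 0.01 for all genes tested. The 8 genes were chosen with earlier results of these data known, so these comparisons are a description only.

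egl-3 encodes the worm counterpart of proprotein convertase 2, the main enzyme that cuts neuropeptide precursors. It had 1219 and 1044 counts in the mutant and 1989 and 1910 counts in N2. Normalised, these were 44.7 and 46.97 CPM in the mutant libraries, against 60.4 and 68.7 CPM in the N2 libraries. Both mutant libraries lay below both N2 libraries, and the gap between the groups exceeded the spread within either. egl-3 averaged 45.8 ± 1.63 CPM in the mutant and 64.6 ± 5.82 CPM in N2 (SD, n = 2 each; edgeR adjusted p = 8.12e-11). Its log2 fold change was -0.49 (SE 0.055, 95% interval -0.60 to -0.38), which left 0.710 of the N2 footprints in the mutant (interval 0.658 to 0.767). Only 4.94% of all genes tested had a lower log2 fold change. The call held in all 14 alternative analyses, with log2 fold changes of -0.72 to -0.40.

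sbt-1 encodes the 7B2 homologue, a chaperone that EGL-3 needs to become active. Its level was 10.4 and 9.58 CPM in the mutant libraries, against 11.4 and 11.8 CPM in the N2 libraries. The mutant libraries were the lower ones here too, without overlap, but by less. The log2 fold change of -0.21 (SE 0.094, 95% interval -0.40 to -0.02) did not pass after adjustment (edgeR adjusted p = 0.0794). With 213 to 375 counts per library, a fall as large as that of egl-3 lies outside this interval.

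egl-21 encodes the carboxypeptidase E homologue, which trims the basic residues left by the convertase. It had 44.2 and 44.5 CPM in the mutant libraries and 49.2 and 56.3 CPM in the N2 libraries. The mutant libraries nearly coincided, whereas N2 replicate 2 stood above N2 replicate 1. egl-21 fell in the mutant, with a log2 fold change of -0.25 (SE 0.056, 95% interval -0.36 to -0.13; adjusted p = 3.50e-04 by edgeR), which left 0.843 of the N2 footprints. This call rested on N2 replicate 2: without it the log2 fold change was -0.15 and did not pass (edgeR adjusted p = 0.0641).

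**Figure D1:**
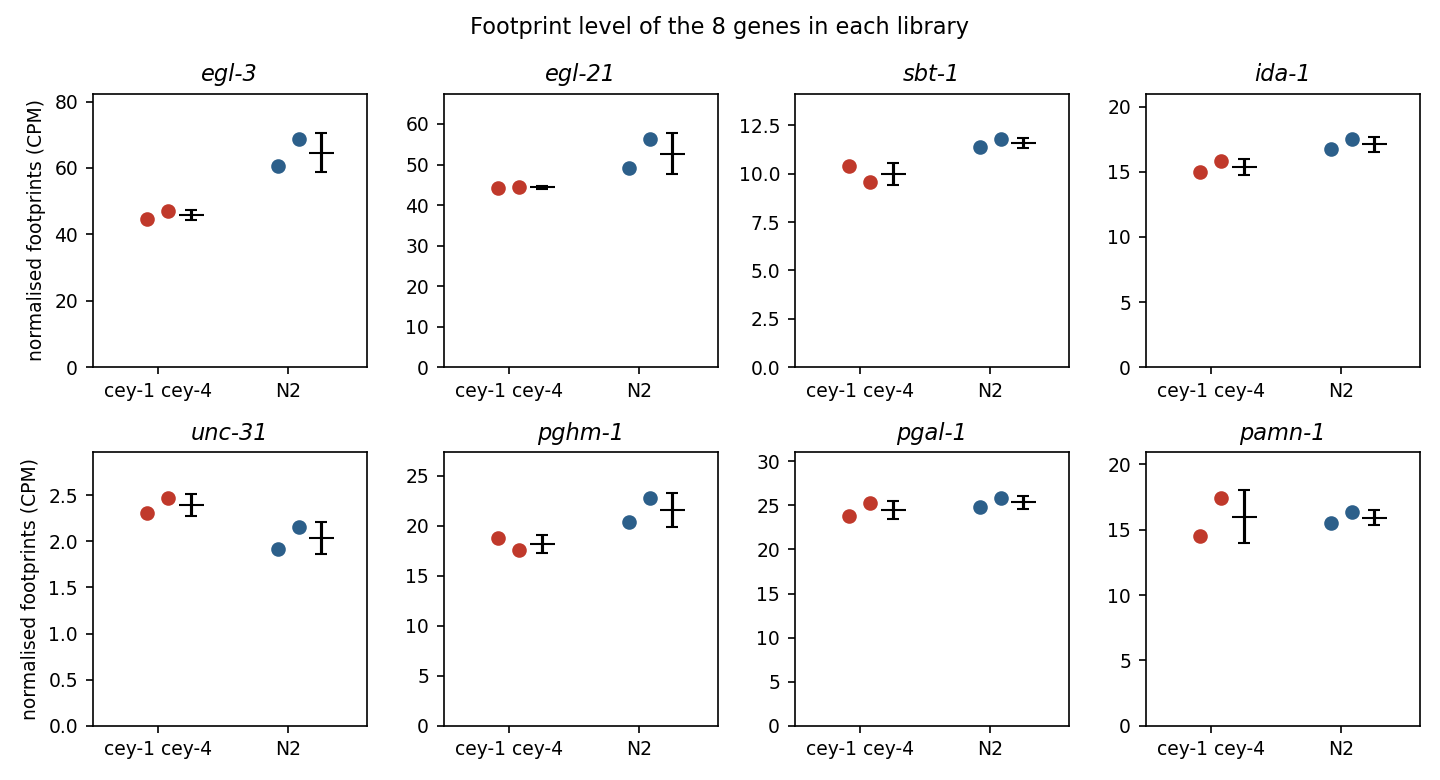
Footprint level in CPM (linear axes from 0, a scale of its own for each gene) of the 8 genes in the 2 cey-1 cey-4 libraries (red) and the 2 N2 libraries (blue); black bars give mean ± SD. The mutant libraries lie below both N2 libraries for egl-3, egl-21, sbt-1, ida-1 and pghm-1, above them for unc-31, and overlap with them for pgal-1 and pamn-1.

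Amidation takes 2 enzymatic steps, a hydroxylation and a cleavage by a lyase. pghm-1 encodes an enzyme with the first activity alone, pgal-1 an enzyme with the second alone, and pamn-1 a protein that carries both. pghm-1 had 18.8 and 17.5 CPM in the mutant libraries, against 20.3 and 22.8 CPM in the N2 libraries. Again the mutant libraries were both lower, and N2 replicate 2 was the highest of the 4. pghm-1 fell in the mutant, at a log2 fold change of -0.24 (SE 0.074, 95% interval -0.39 to -0.09, edgeR adjusted p = 0.00825). The call was lost without N2 replicate 2 (log2 fold change -0.16, edgeR adjusted p = 0.173), without mutant replicate 2 (-0.19, edgeR adjusted p = 0.107) and with DESeq2 (-0.25, adjusted p = 0.132).

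The lyase gene pgal-1 had 23.8 and 25.2 CPM in the mutant libraries and 24.9 and 25.9 CPM in the N2 libraries. These groups overlapped, and the log2 fold change of -0.05 (SE 0.067, 95% interval -0.18 to 0.08) did not pass (edgeR adjusted p = 0.604). In the RefSeq gene table pgal-1 overlaps another protein-coding gene, F21F3.6, which had 1658 and 1416 counts in the mutant and 1922 and 1645 counts in N2, more than pgal-1 itself with 649 and 561 counts in the mutant and 818 and 720 counts in N2. Whether the counting used strand is not given in the sources used here, so the share of footprints assigned to either gene is uncertain. sbt-1 overlaps grl-14, which had at most 4 counts in a library, and none of the other 6 genes overlaps a protein-coding gene in that table.

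The bifunctional gene pamn-1 had 14.5 and 17.5 CPM in the mutant libraries, against 15.5 and 16.3 CPM in the N2 libraries. The mutant libraries bracketed those of N2, so no difference larger than the replicate spread was seen (log2 fold change -0.0006, SE 0.082, 95% interval -0.16 to 0.16, edgeR adjusted p = 0.996). Scaled by library total alone, the 3 amidation genes summed to 57.4 and 60.0 CPM in the mutant libraries and 60.7 and 64.9 CPM in the N2 libraries. Within a library, the ratio of pghm-1 to pgal-1 counts was 0.790 and 0.695 in the mutant and 0.818 and 0.881 in N2. This ratio was lower in both mutant libraries (exact permutation test, 2-sided, p = 0.333, the smallest that 2 libraries against 2 allow), and without mutant replicate 2 the log2 difference of -0.20 was -0.10.

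Of the vesicle genes, ida-1 encodes a membrane protein of dense-core vesicles related to the mammalian IA-2 and phogrin autoantigens. It had 15.0 and 15.8 CPM in the mutant libraries, against 16.7 and 17.5 CPM in the N2 libraries. The groups did not overlap, but the log2 fold change of -0.16 (SE 0.079, 95% interval -0.31 to 0.00) did not pass (edgeR adjusted p = 0.123).

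unc-31 encodes the CAPS protein, which is needed for dense-core vesicles to fuse. It had 2.31 and 2.47 CPM in the mutant libraries, against 1.91 and 2.16 CPM in the N2 libraries. These values came from 63 and 55 counts in the mutant and 63 and 60 counts in N2. It was the one gene of the 8 with both mutant libraries above both N2 libraries. Its log2 fold change of 0.23 (SE 0.196) did not pass (edgeR adjusted p = 0.389), and the 95% interval of -0.16 to 0.62 takes in a small fall as well as a rise larger than the fall of egl-3. No call was made for it in any of the 14 alternatives.

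In all, 5 genes had both mutant libraries below both N2 libraries, 1 had them above, and 2 overlapped, where 64.8% of all genes tested had groups that did not overlap. Scaled by library total alone, the 8 genes together summed to 174 and 179 CPM in the mutant libraries and 200.3 and 221 CPM in the N2 libraries. The mean was 177 ± 3.30 in the mutant and 211 ± 14.6 in N2, lower in both mutant libraries (exact permutation test, 2-sided, p = 0.333, the smallest possible). The difference was -34.0 CPM. Without egl-3 the remaining 7 genes summed to 129 and 132 CPM in the mutant and 140 and 152 CPM in N2, a difference of -15.3 CPM, or of -9.06 CPM without N2 replicate 2.

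Ratios between genes of one library do not depend on how libraries are scaled to each other. For every count of egl-21 there were 1.01 and 1.05 counts of egl-3 in the mutant libraries, against 1.23 and 1.22 in the N2 libraries. The ratio of egl-3 to sbt-1, the enzyme over its chaperone, was 4.29 and 4.90 in the mutant libraries and 5.30 and 5.82 in the N2 libraries. These differences were -0.25 and -0.28 on the log2 scale, and the second ranged from -0.37 to -0.18 when a library was left out. Relative to unc-31, egl-3 had a ratio of 19.3 and 18.98 in the mutant libraries and 31.6 and 31.8 in the N2 libraries. Against each of the other 7 genes, egl-3 was lower in both mutant libraries than in both N2 libraries. The exact permutation test gave p = 0.333 for each of the 8 ratios computed, also after adjustment over them, the smallest p possible here, and 5 of the 8, all with egl-3, were added after the counts had been seen. The 7 ratios share the egl-3 counts and are not independent.

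**Figure D2:**
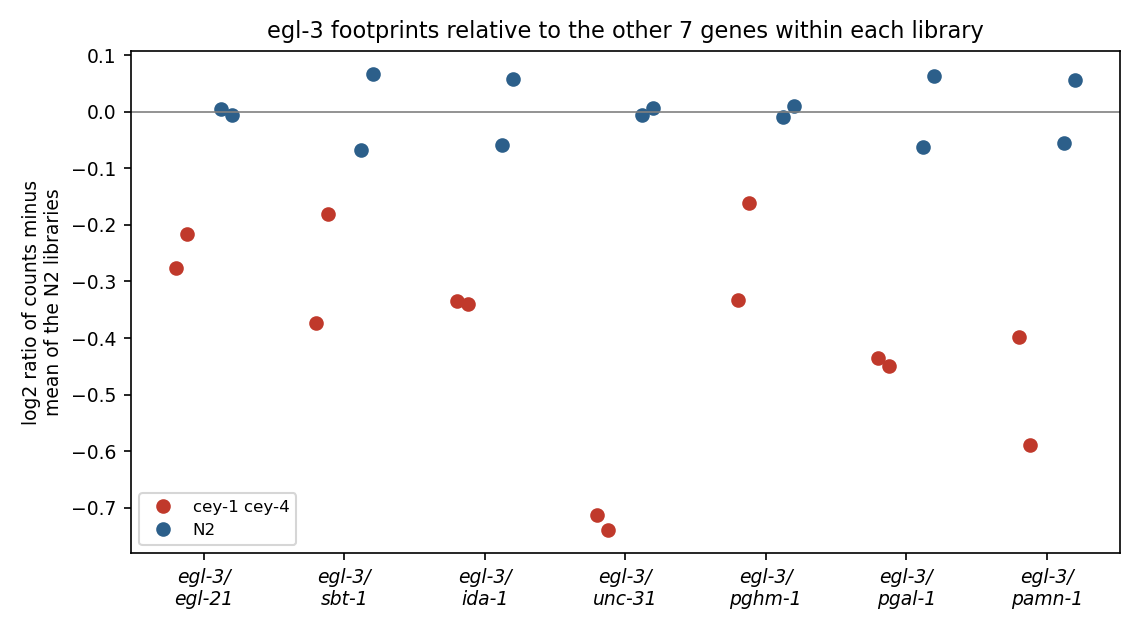
Log2 ratio of egl-3 counts to the counts of each of the other 7 genes within a library, minus the mean of the N2 libraries; red points are the 2 cey-1 cey-4 libraries, blue points the 2 N2 libraries. For each of the 7 partners both red points lie below both blue points, farthest for unc-31 at a mean of -0.73 and nearest for egl-21 at -0.25.

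The size of the calls depended on what the libraries were scaled to. Scaling them to 35 pan-neuronal and synaptic transmitter genes gave 3 lower genes, and egl-3 had a log2 fold change of -0.47. Scaling them to 50 markers of muscle, pharynx, intestine, hypodermis and neurons moved the median of all genes tested by -0.23 on the log2 scale. Under it 7 of the 8 genes were lower, all but unc-31. With TMM, the median log2 fold change was 0.83 for the muscle, 0.35 for the hypodermis and 0.19 for the intestine markers. It was 0.11 for the pan-neuronal genes and -0.15 for the pharynx markers. Centring on markers that were mostly higher lowers other genes, so those 7 calls partly follow from the choice of markers. Relative to the median of all genes, the median of the 8 genes was -0.19 under TMM, -0.19 under neuronal scaling and -0.19 under somatic scaling. Scaling a library moves all its genes nearly alike, so this agreement follows from the arithmetic and is no test of the 8 genes. Under somatic scaling egl-3 had a log2 fold change of -0.72, egl-21 of -0.47 and pghm-1 of -0.47.

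**Figure D3:**
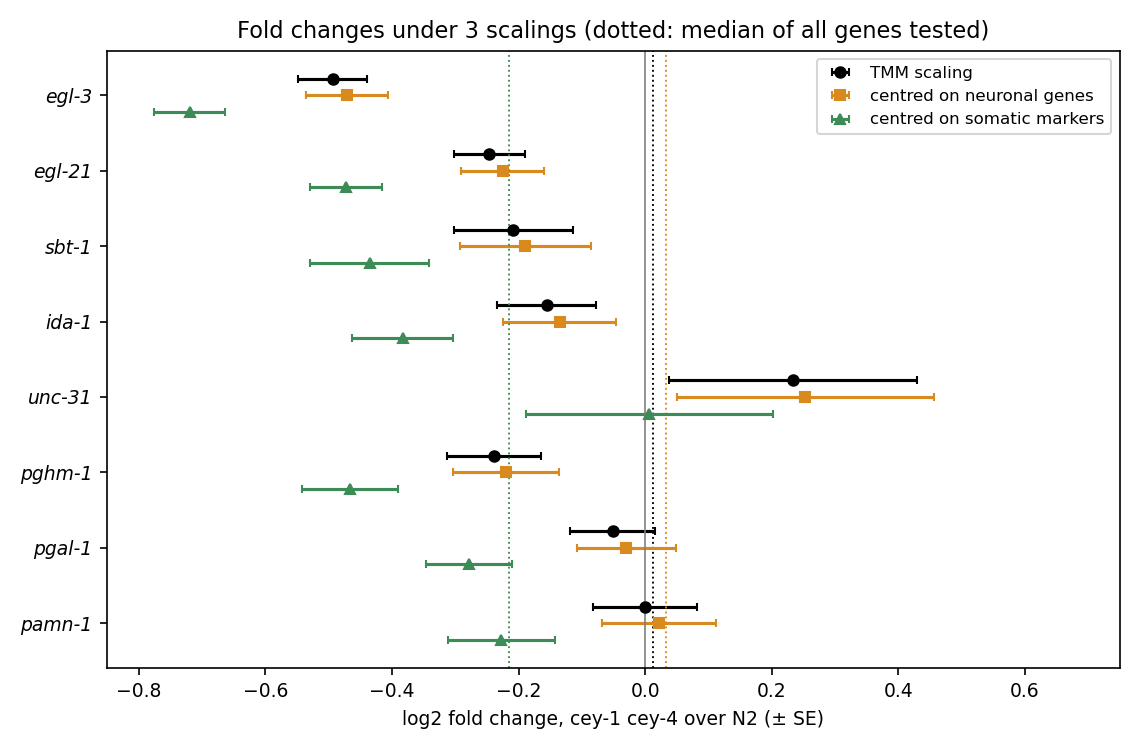
Log2 fold change (cey-1 cey-4 over N2, ± SE) of the 8 genes under TMM scaling (black circles), scaling to neuronal genes (orange squares) and scaling to somatic markers (green triangles); the dotted lines mark the median of all genes tested under each. Somatic scaling shifts the genes and the median together by about -0.23. egl-3 is lowest of the 8 under each scaling, an order that scaling whole libraries can hardly change.

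Other genes of the pathway did not share one direction. Among the 5 other convertases and carboxypeptidases, 1 rose, 1 fell and 3 did not pass. aex-5, the convertase of the intestine and of muscle, had 9.98 ± 0.27 CPM in the mutant and 6.91 ± 0.24 CPM in N2, a rise of 0.53 on the log2 scale (SE 0.106; adjusted p = 3.89e-05 by edgeR), and it passed under every scaling. bli-4, the convertase needed for the cuticle, had 49.9 ± 0.019 CPM in the mutant and 50.1 ± 0.80 CPM in N2 and missed the threshold (log2 fold change -0.01; adjusted p = 0.952 by edgeR). Under somatic scaling it was lower (log2 fold change -0.23). The carboxypeptidase D gene cpd-1 did not pass (-0.10), and was lower under somatic scaling (-0.32). cpd-2 fell by 0.26 on the log2 scale (edgeR adjusted p = 0.0425). That call was lost without N2 replicate 1 (log2 fold change -0.23, edgeR adjusted p = 0.171), without mutant replicate 1 (-0.21, 0.274) and without mutant replicate 2 (-0.30, 0.0799). It was also lost with neuronal scaling (-0.24, edgeR adjusted p = 0.0910), with upper-quartile factors (-0.22, 0.105) and with DESeq2 (-0.27, 0.295).

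Of 15 genes for the formation and maturation of dense-core vesicles, 0 rose, 2 fell and 13 had no call. Their median log2 fold change was -0.03, or -0.26 under somatic scaling, where 7 were lower, and 0.02 with upper-quartile factors. When 1 library was left out it lay between -0.06 and 0.02. unc-108, the Rab2 gene needed for vesicle maturation, had 105 ± 3.71 CPM in the mutant and 123 ± 0.47 CPM in N2 and fell by 0.22 (SE 0.042, edgeR adjusted p = 1.48e-05). vps-53, a subunit of tethering complexes of the endosome and Golgi, fell by 0.27 (edgeR adjusted p = 0.0229), but was not called without mutant replicate 1 (-0.14, adjusted p = 0.445 by edgeR) or without N2 replicate 2 (-0.20, 0.179). Nor was vps-53 called with neuronal scaling (-0.25, edgeR adjusted p = 0.0511), with upper-quartile factors (-0.22, 0.0694) or with DESeq2 (-0.28, 0.236). rab-10 did not pass (-0.04, edgeR adjusted p = 0.596), and was lower under somatic scaling (-0.27).

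Among 10 transport genes, 1 rose, 1 fell and 8 showed no call. Their median was 0.05, or -0.18 under somatic scaling and -0.02 without N2 replicate 1. With upper-quartile factors 4 rose, and without N2 replicate 1 there were 2 that fell. arl-8, a small GTPase of lysosomes and of axonal vesicle transport, had 35.4 ± 1.19 CPM in the mutant and 50.8 ± 2.18 CPM in N2. It fell by 0.52 (SE 0.056, edgeR adjusted p = 3.99e-12), to a degree close to that of egl-3. The kinesin gene unc-104, which carries vesicles along axons, rose by 0.24 (edgeR adjusted p = 0.0239). It did not pass without N2 replicate 1 (0.18, edgeR adjusted p = 0.209), without mutant replicate 2 (0.15, 0.349), under somatic scaling (0.01, 0.924) or with DESeq2 (0.23, adjusted p = 0.269). The kinesin gene unc-116 (0.10) and the dynein gene dhc-1 (0.00) did not pass. unc-116 was higher with upper-quartile factors (0.14), with at least 50 counts in 2 libraries (0.11) and with the replicate block (0.09, edgeR adjusted p = 0.0404), and both were lower under somatic scaling (-0.13 and -0.23).

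The 19 genes for docking and fusion and their control had a median of 0.16; 8 of them rose, 2 fell and 9 had no call. The rises depended on scaling and on single libraries: 1 rose, 5 fell and the median was -0.07 under somatic scaling, 3 rose without N2 replicate 1 or without mutant replicate 1, 5 without N2 replicate 2, and 1 with DESeq2. The calcium channel gene egl-19 rose by 0.43 on the log2 scale (SE 0.083; adjusted p = 1.94e-05 by edgeR). The synaptobrevin gene snb-1 had 31.2 ± 0.37 CPM in the mutant and 37.5 ± 0.93 CPM in N2 and fell by 0.26 (SE 0.059, edgeR adjusted p = 2.37e-04). goa-1, which encodes a G protein that restrains release, did not pass (-0.07, edgeR adjusted p = 0.396), and was lower under somatic scaling (-0.30).

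The 17 genes for classical transmitters and their vesicles had a median of -0.18, equal to that of the 8 genes, or of -0.06 without N2 replicate 1. Of these, 1 rose, 4 fell and 12 had no call, with 2 falls without mutant replicate 2 (median -0.08) or with DESeq2 and 9 under somatic scaling. tdc-1, the tyrosine decarboxylase of certain neurons and of gonadal sheath cells, had 31.6 ± 1.23 CPM in the mutant and 55.8 ± 1.28 CPM in N2 (log2 fold change -0.82, SE 0.056; adjusted p = 5.64e-21 by edgeR). tbh-1, which encodes the next enzyme on the route to octopamine, did not pass (-0.004, edgeR adjusted p = 0.954), and was lower under somatic scaling (-0.23). The synaptojanin gene unc-26 fell by 0.38 (edgeR adjusted p = 3.22e-04), and the clathrin adaptor gene unc-11 fell by 0.19 (edgeR adjusted p = 0.00288), not passing without mutant replicate 2 (-0.16, 0.0617) or with DESeq2 (-0.20, 0.0588). The 18 pan-neuronal genes divided into 5 that rose, 1 that fell and 12 without a call, and their median was 0.11, or -0.12 under somatic scaling. The rises numbered 3 without N2 replicate 1 or without mutant replicate 2, 2 with DESeq2 and 0 under somatic scaling. The ankyrin gene unc-44 and the spectrin gene unc-70 had log2 fold changes of 0.29 and 0.26, and the tubulin gene tba-1 of -0.31, each past the test (edgeR adjusted p = 4.02e-10, 1.12e-08 and 2.81e-07). Neither unc-44 (0.06) nor unc-70 (0.04) passed under somatic scaling. The 18 pan-neuronal genes are among the 50 markers which that scaling centres on, so their loss of rises there is partly built in.

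The precursors that the enzymes act on were taken by name: of 138 flp, nlp and ins genes present, 107 were tested, and 12 rose, 6 fell and 89 did not pass. Their median log2 fold change was 0.09, or -0.14 under somatic scaling with 4 higher and 17 lower. Leaving out N2 replicate 1 gave 9 higher and 3 lower, mutant replicate 1 gave 9 and 2, and mutant replicate 2 gave 7 and 3. DESeq2 gave 5 higher and 2 lower. Together they held 0.0803% and 0.0823% of counts in the mutant libraries and 0.0797% and 0.0803% in the N2 libraries. nlp-12, which encodes cholecystokinin-like peptides, had 6.15 ± 0.11 CPM in the mutant and 3.53 ± 0.14 CPM in N2 (log2 fold change 0.80, SE 0.138, edgeR adjusted p = 1.91e-06). nlp-26 had 35.05 ± 0.13 CPM in the mutant and 60.8 ± 1.47 CPM in N2 (log2 fold change -0.80, SE 0.054, edgeR adjusted p = 4.01e-21). nlp-40, an intestinal peptide of the defecation rhythm, had a log2 fold change of 0.11 (edgeR adjusted p = 0.0377; 0.235 without N2 replicate 1, 0.120 without mutant replicate 1 and 0.257 without mutant replicate 2). Its call was also lost with neuronal scaling (adjusted p = 0.0586 by edgeR), with no low-count filter (0.0598), with limma-voom (0.0588), with limma on the deposited log2 values (0.0516) and with DESeq2 (0.288). nlp-24 had a log2 fold change of 0.16 (edgeR adjusted p = 0.00905; 0.0989 without N2 replicate 1, 0.355 without mutant replicate 2 and 0.129 with DESeq2). Under somatic scaling nlp-40 was lower (-0.12) and nlp-24 did not pass (-0.06).

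**Figure D4:**
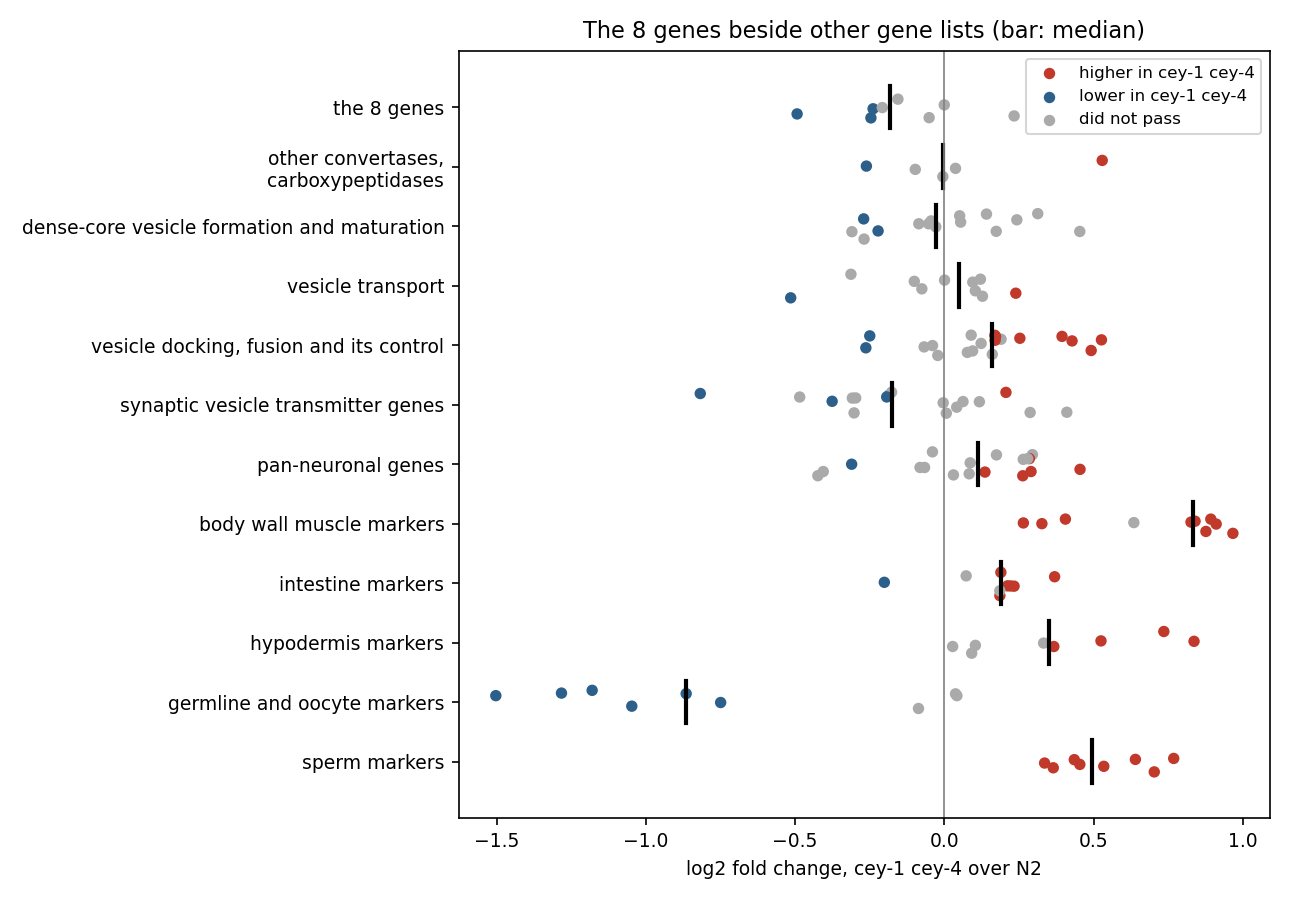
Log2 fold change (cey-1 cey-4 over N2) of each gene tested in the 8-gene set and in 11 other lists, under TMM scaling; red points were higher and blue points lower in the mutant at an adjusted p under 0.05, grey points did not pass, and black bars are medians. The median of the 8 genes (-0.18) equals that of the transmitter list, above germline and oocyte markers (-0.87) and below body wall muscle markers (0.83).

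The markers of neurons, the cells in which the pathway mainly works, were all detected. Among 13 neuronal markers 4 were higher, 1 was lower and 8 had no call, none was at 0, and the least abundant had 5 counts in 1 library. They held 0.0507% and 0.0505% of counts in the mutant libraries and 0.0443% and 0.0440% in the N2 libraries. Their median log2 fold change was 0.03. A summed share weighs the most abundant markers most, so it does not show that the neuronal markers rose as a set. The 18 pan-neuronal genes held 0.172% and 0.170% of counts in the mutant libraries and 0.171% and 0.177% in the N2 libraries. Expression of these 18 genes outside neurons was not examined, so their share cannot be read as neuronal content alone. Markers of other tissues moved too, in both directions. The 10 germline and oocyte markers held 0.273% and 0.270% of counts in the mutant and 0.446% and 0.449% in N2, with 6 lower and 0 higher of 9 tested. The 10 body wall muscle markers held 2.49% and 2.48% in the mutant and 1.34% and 1.42% in N2, with 9 higher. The 8 sperm markers all rose, with 0.111% and 0.115% in the mutant and 0.0776% and 0.0796% in N2.

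Of 9 intestine markers 6 rose and 1 fell, of 8 hypodermis markers 4 rose and 0 fell, of 5 pharynx markers tested 0 rose and 3 fell, and of 3 glia markers tested 1 rose and 1 fell. Intestine markers held 7.29% and 7.17% of counts in the mutant and 6.62% and 5.97% in N2, hypodermis markers 1.48% and 1.51% in the mutant and 1.37% and 1.47% in N2, and pharynx markers 0.110% and 0.122% in the mutant and 0.0861% and 0.0735% in N2. Under somatic scaling, 0 intestine markers were higher and 2 lower, and 3 were higher without mutant replicate 1 or without mutant replicate 2. With any 1 of the 4 libraries left out, 2 pharynx markers were higher, and the lower ones numbered 3 without N2 replicate 1, 1 without N2 replicate 2, 0 without mutant replicate 1 and 1 without mutant replicate 2. The intestine markers are among those that somatic scaling centres on, so their loss of rises there is partly built in. The glia markers held 0.00202% and 0.00184% of counts in the mutant and 0.00241% and 0.00221% in N2. The part of these tissue shares in the falls of egl-3, egl-21 and pghm-1 was not tested.

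The 5 genes whose footprints across the 4 libraries were most like those of egl-3 were oops-1, C25A1.16, sup-17, C46A5.6 and bath-2, out of 8635 genes with a mean of at least 100 counts. Likeness was the root mean square difference of log2 CPM over the 4 libraries, each gene centred on its own mean, and these genes differed from egl-3 by 0.027 to 0.029. sup-17, which encodes an ADAM metalloprotease, had 47.02 and 49.3 CPM in the mutant libraries and 64.9 and 69.9 CPM in the N2 libraries. oops-1, which encodes an oocyte partner of the sperm protein SPE-11, had 22.6 and 23.8 CPM in the mutant and 31.3 and 33.8 CPM in N2. With 4 libraries, many genes can come this close, and the likeness is a description only.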

How the data were processed

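The authors' deposited table of counts held whole numbers for 20182 rows in 4 ribosome profiling libraries. Per the submitters' processing notes, reads were aligned with Bowtie. Build, annotation, strand use and the handling of reads with several matches were not stated. A second deposited table holds log2 values, tested here to be log2 of (8 + counts brought to the total of the smallest library) within 0.0005. The 3 rows under sequence names, which repeat genes present under WormBase identifiers, were left out, and 18778 of the remaining 20179 had a symbol.

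Counts were tested over all genes in R 4.3.3 with edgeR 4.0.16 (TMM, filterByExpr with a minimum count of 10, robust glmQLFit, 2-sided glmQLFTest, genotype only). The SE is the log2 fold change divided by the square root of F. The test was checked on counts simulated from its own fitted means and dispersions, which cannot show whether the real libraries follow that model. Alternatives used limma 3.58.1, DESeq2 1.42.0, other scalings and filters, and left out each library.

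The 8 genes and the lists were chosen with earlier results of these data known. Beside the 8 genes, up to 4 were named per pathway list: 2 by lowest p, 2 by highest mean CPM. The flp, nlp and ins names were added later. Of the listed genes, rab-27, erp-1 and mir-228 matched no symbol. Levels per coding length and protein comparisons were not run.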

Additional observations from a re-analysis of the deposited data

How the results depend on the processing

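Over the 14 alternatives the fall of egl-3 and the lack of a call for unc-31 held throughout, and the count of the 8 genes that rose was 0. Replicates share numbers in the labels but nothing ties equal numbers to a culture: with a replicate block egl-3 had a log2 fold change of -0.49 and 3 of the 8 genes fell, 2431 genes rose and 2351 fell over the table, and deviations of same-numbered libraries correlated at 0.28 across 8636 genes. When libraries were left out 1 at a time, with the lone library of a group assumed to vary like the other group, the 8 genes gave 1 to 3 falls. Log2 fold changes then ranged from -0.35 to -0.15 for egl-21, -0.33 to -0.16 for pghm-1, -0.13 to 0.13 for pamn-1, -0.024 to 0.0090 for bli-4, -0.012 to 0.011 for dhc-1, -0.13 to 0.023 for rab-10 and -0.059 to 0.045 for tbh-1, and the other pathway and neuronal lists gave 7 to 14 higher and 7 to 9 lower genes.

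Somatic scaling gave 876 higher and 5593 lower genes over the table, against 2278 and 2177, and 2 higher and 34 lower genes of the 84 in the other pathway and neuronal lists, against 16 and 11. Since it moved the median of all genes by -0.23, 7 of the 8 genes were lower, sbt-1 at -0.44, ida-1 at -0.38, pgal-1 at -0.28 and pamn-1 at -0.23, as were dhc-1 (-0.23), nlp-40 (-0.12) and unc-116 (-0.13), while nlp-24 at -0.064 did not pass. DESeq2 called 1007 higher and 1171 lower genes, with 4 and 6 of the other lists, and pghm-1 did not pass at -0.25; the cause was not tested. The share of calls that were higher was 51.1% with TMM, 63.1% with upper-quartile factors and 13.5% with somatic scaling. Values near 0 changed sign. pamn-1 was 0.0098 with at least 50 counts in 2 libraries, 0.022 with neuronal scaling, 0.0016 with library totals only, 0.003 with the deposited log2 values and 0.045 with upper-quartile factors. Under upper-quartile factors bli-4 was 0.041, tbh-1 0.042 and rab-10 0.0011. Under neuronal scaling bli-4 was 0.016 and tbh-1 0.017, and with the stricter filter 0.0050 and 0.0063. dhc-1 was -0.0080 with DESeq2 and -0.0071 with no low-count filter. Of 350 comparisons of named list genes with an alternative, 293 kept direction and call. Depth limits unc-31 most, at 55 to 63 counts. The planned levels per coding length were not run.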
